A study of Mus musculus with 9 samples.

Results

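Trp53 encodes the transcription factor p53, and 9 genes that p53 is known to activate were described beside it: Mdm2, Cdkn1a, Btg2, Ccng1, Phlda3, Sesn2, Trp53inp1, Bax and Bbc3. The 10 genes were taken by symbol, each as the single row whose Ensembl ID carries that symbol in GENCODE M21, out of 54232 genes with an ID, and all 10 were among the 16168 genes tested. RNA was measured by poly-A RNA-seq in wild-type mouse embryonic stem cells taken through embryoid body differentiation, in which the cells grow as floating aggregates and begin to form germ layers. The labels name 3 differentiation conditions, EBD2, EBD5 and EBD6, each with 3 libraries of genotype WT and with no drug or DNA-damaging agent named. The meaning of these numbers is not labelled, and they are not read here as times. Whether libraries of a condition are separate cultures is not labelled either, so the spread behind the p-values may be technical only.

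p53 is held at a low level by the ubiquitin ligase Mdm2, itself a p53 target, and its activity is set mainly through protein stability and modification, which RNA levels do not report. When stabilised it binds response elements near its targets and raises genes that stop the cell cycle (Cdkn1a, Btg2, Ccng1), damp growth signalling or act in metabolism and autophagy (Phlda3, Sesn2, Trp53inp1), or open the mitochondrial path to apoptosis (Bax, Bbc3). Mouse embryonic stem cells are known for abundant Trp53 RNA and for a p53 response that leads to differentiation or death more than to arrest. Several of these targets have other activators, such as Atf4 for Sesn2 and serum or growth factor signalling for Btg2.

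Stretches of promoter that hold a decamer of the p53 response element are shown, since p53 is known to act on its targets through such elements. A response element is a pair of decamers with a short spacer, so a lone decamer is only a part of it. RefSeq promoter windows of 300 bases on GRCm38.p6, from 250 bases before to 50 bases after an annotated start, were searched on both strands for the degenerate p53 decamer consensus, and 9 of the 10 genes had a window, 12 windows in all. Trp53inp1 had none. The decamer was found in 5 of the 12 windows, 1 each of Trp53, Cdkn1a, Mdm2, Ccng1 and Bax, and in 8.36% of all 32851 windows. Each sequence is written 5′ to 3′ on the strand of the gene, and capitals mark the decamers:
Cdkn1a, chr17:29090886-29090957, plus strand: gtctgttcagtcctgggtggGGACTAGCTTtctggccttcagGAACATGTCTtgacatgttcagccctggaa
Trp53, chr11:69580264-69580313, plus strand: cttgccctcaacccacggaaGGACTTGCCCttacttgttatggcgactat
Mdm2, chr10:117710915-117710964, minus strand: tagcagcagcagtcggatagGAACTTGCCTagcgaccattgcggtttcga
Ccng1, chr11:40755442-40755491, minus strand: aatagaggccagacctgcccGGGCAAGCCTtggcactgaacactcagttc
Bax, chr7:45467070-45467119, minus strand: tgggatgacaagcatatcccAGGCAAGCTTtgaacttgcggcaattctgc
The Cdkn1a window was the 1 window of these genes with a pair of decamers no more than 13 bases apart. Such a pair was held by 24 windows, or 0.0731%, of all. The other stretches shown hold 1 decamer each. The Cdkn1a window also held the core ACATGT, which reads the same on both strands, at least 2 times, as 0.329% of all windows did. The first copy lies inside the right-hand decamer. The second lies in the bases right after that decamer, which miss the consensus at their first base and stay in small letters. Capitals thus mark strict matches to the consensus, which need not be the element that p53 uses. This Cdkn1a window belongs to the upstream of the 2 annotated Cdkn1a starts, which lie 2790 bases apart. A match describes letters only, and binding was not measured.

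The libraries held 5453399 to 11703388 counts. Libraries 1 and 2 of EBD2 and libraries 2 and 3 of EBD6 could not be told from sampling noise (chi-square per gene 0.949, p = 1, and 1.01, p = 0.169), so their counts were added up as 1 sample a pair, which leaves 2 samples of EBD2, 3 of EBD5 and 2 of EBD6. The 8 pluripotent stem cell markers checked, among them Pou5f1, Nanog and Sox2, were each at 1 CPM (counts per 1000000 counts of the library after TMM scaling) or more in all 3 groups, with a summed level of 1680 to 1880 CPM in EBD2, 1210 to 1330 in EBD5 and 1080 to 1240 in EBD6. The summed level of 11 visceral and parietal endoderm markers was 36.2 to 38.0 CPM in EBD2, 2390 to 2490 in EBD5 and 1440 to 1490 in EBD6. Mesoderm markers summed to 4.58 to 6.07, 12.7 to 15.1 and 116 to 120 CPM in the same order, and trophoblast markers to 45.3 to 47.1, 67.7 to 75.3 and 261 to 269 CPM, with Cdx2 and Elf5 at 0 counts in EBD2. Neuroectoderm markers summed to 143 to 150 CPM in EBD2, 66.4 to 74.6 in EBD5 and 182 to 187 in EBD6. That sum was lowest in EBD5, as Trp53, Sesn2, Bax and Bbc3 were. Against EBD2, Tubb3, Pax6 and Sox1 fell there, but Six3 rose from 0.338 to 3.29 CPM. Feeder fibroblast markers summed to 25.6 to 25.7, 20.7 to 24.4 and 42.6 to 53.8 CPM. Most of their EBD2 sum was Thy1 at 22.46 CPM, which fell to 2.77 in EBD6, while Col1a1, Col1a2 and Postn rose. The EBD5 libraries stood apart in RNA make-up, with 0.726% to 0.811% of counts from ribosomal RNA genes against at most 0.0247% in the other libraries. In bulk RNA, fewer cells expressing a gene and less RNA of it per cell cannot be told apart. Markers of several of these cell types differ between the groups in every comparison below. The part of the cell types in the results was not tested.

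In EBD6 against EBD2, 8 of the 10 genes rose and none fell, led by Btg2, Phlda3 and Cdkn1a; Trp53 itself and Bax did not pass the test. The rises ran from 1.24-fold (Bbc3) to 5.55-fold (Btg2), by edgeR's quasi-likelihood test with Benjamini-Hochberg adjustment over all genes tested, called at an adjusted p under 0.05. Across all 16168 genes 33.8% rose, 32.3% fell and 66.1% were called in either direction in the same comparison, so a call by itself was common, and the median log2 fold change was 0.53 over the 10 genes against 0.01 over all genes. In EBD5 against EBD2 the genes split: Mdm2, Cdkn1a, Btg2, Ccng1 and Trp53inp1 rose, Trp53, Sesn2, Bax and Bbc3 fell, and Phlda3 did not pass, where 34.9% of all genes rose, 35.1% fell and 70.0% were called. In EBD6 against EBD5, 7 rose (Trp53, Cdkn1a, Btg2, Phlda3, Sesn2, Bax and Bbc3), Ccng1 and Trp53inp1 fell, and Mdm2 did not pass, where 36.9% of all genes rose, 33.3% fell and 70.2% were called. The 3 comparisons share samples pairwise, so their values are set side by side and not counted as separate evidence.

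**Figure D1:**
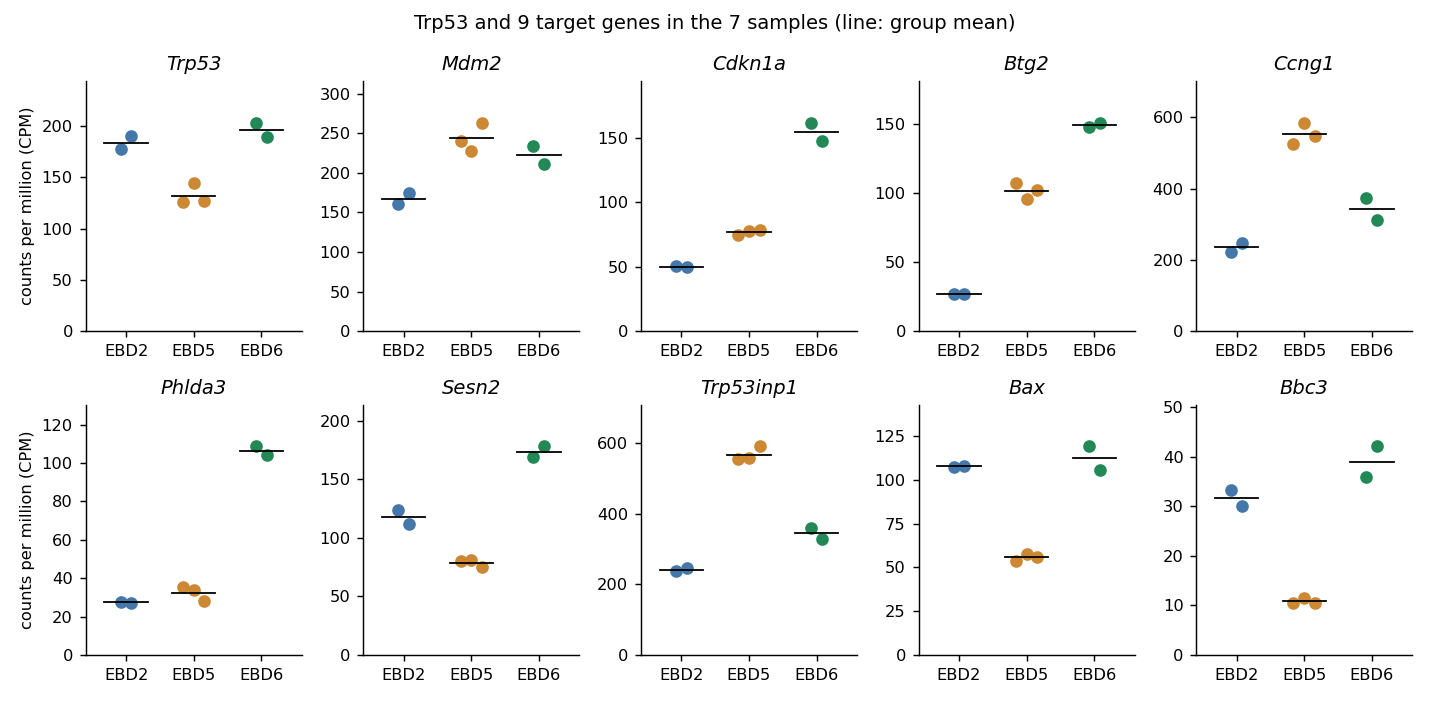
Level in CPM (vertical axis, from 0) of Trp53 and its 9 target genes in each of the 7 samples, by condition; each point is a sample and each line the mean of its group. Cdkn1a, Btg2, Phlda3 and Sesn2 have their highest points in EBD6, Ccng1 and Trp53inp1 in EBD5, and the EBD5 points are the lowest for Trp53, Sesn2, Bax and Bbc3.

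The split involving EBD5 followed base composition. Over the 10 genes, the Spearman correlation between GC content, taken from each gene's longest transcript, and log2 fold change was -0.82 in EBD5 against EBD2. It was 0.93 in EBD6 against EBD5, but -0.19 in EBD6 against EBD2. Over 13746 protein-coding genes tested it was -0.37, 0.56 and 0.17 in the same order. The genes share libraries, so these are descriptions. The members lowest in GC, Trp53inp1 (38.8%) and Ccng1 (40.8%), had their highest levels in EBD5, and those highest in GC, Bbc3 (65.2%) and Bax (63.5%), their lowest. Set against protein-coding genes in the same 3-point band of GC content, 5 members lay above the upper quartile of log2 fold change in EBD6 against EBD2 (Btg2, Phlda3, Cdkn1a, Ccng1 and Trp53inp1) and the other 5 within the quartiles, and the counts were again 5 and 5 in EBD5 against EBD2. In EBD6 against EBD5, 6 lay within the quartiles, Btg2, Phlda3 and Cdkn1a above and Ccng1 below. A second fit, with offsets that take out the trend of counts with GC content and length, is therefore given. Among the 10 genes it stands beside each whose call it ends or whose value it moves by over 1.5-fold. For other genes named below it is not always given, even where the move is that large. With these offsets 7 members rose and none fell in EBD6 against EBD2, 6 rose and 2 fell in EBD5 against EBD2, and 6 rose and none fell in EBD6 against EBD5. What makes the EBD5 libraries differ by GC content was not tested.

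**Figure D2:**
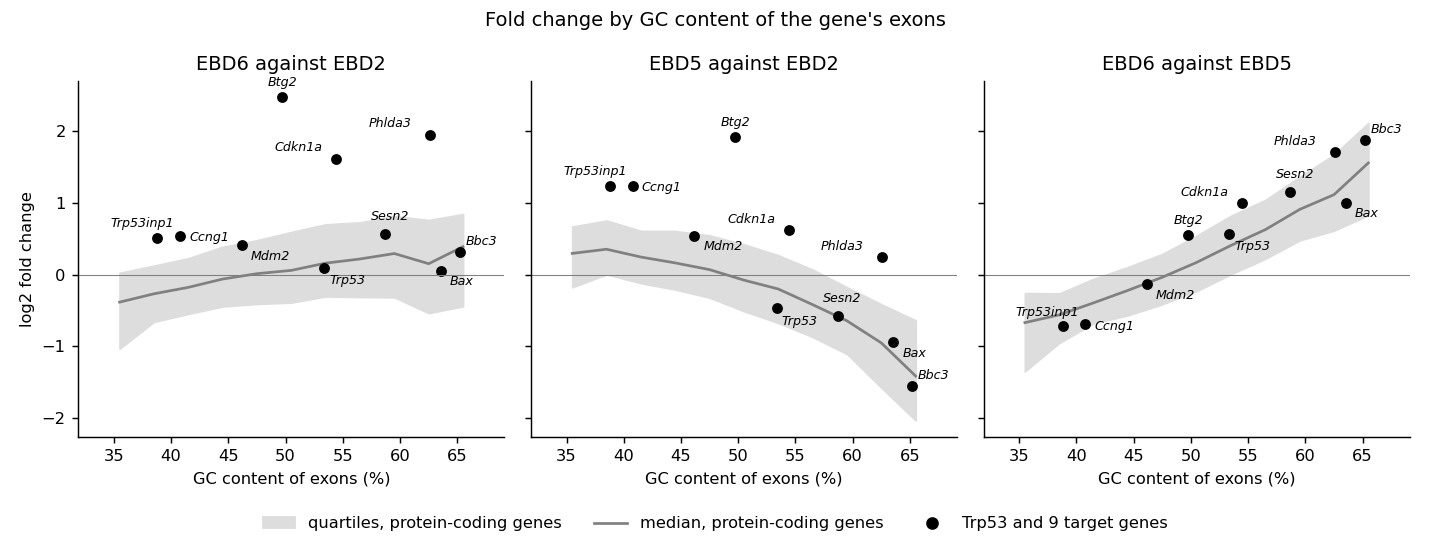
Log2 fold change (vertical axis) against the GC content of a gene's longest transcript in percent (horizontal axis, labelled as exons), for the 3 comparisons. Points are Trp53 and its 9 target genes. The line is the median and the shading the quartiles of protein-coding genes in 3-point GC bands. Both comparisons with EBD5 have a slope across all genes. Btg2, Phlda3 and Cdkn1a lie above the shading in all 3 comparisons, and Ccng1 and Trp53inp1 in those against EBD2.

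**Figure D3:**
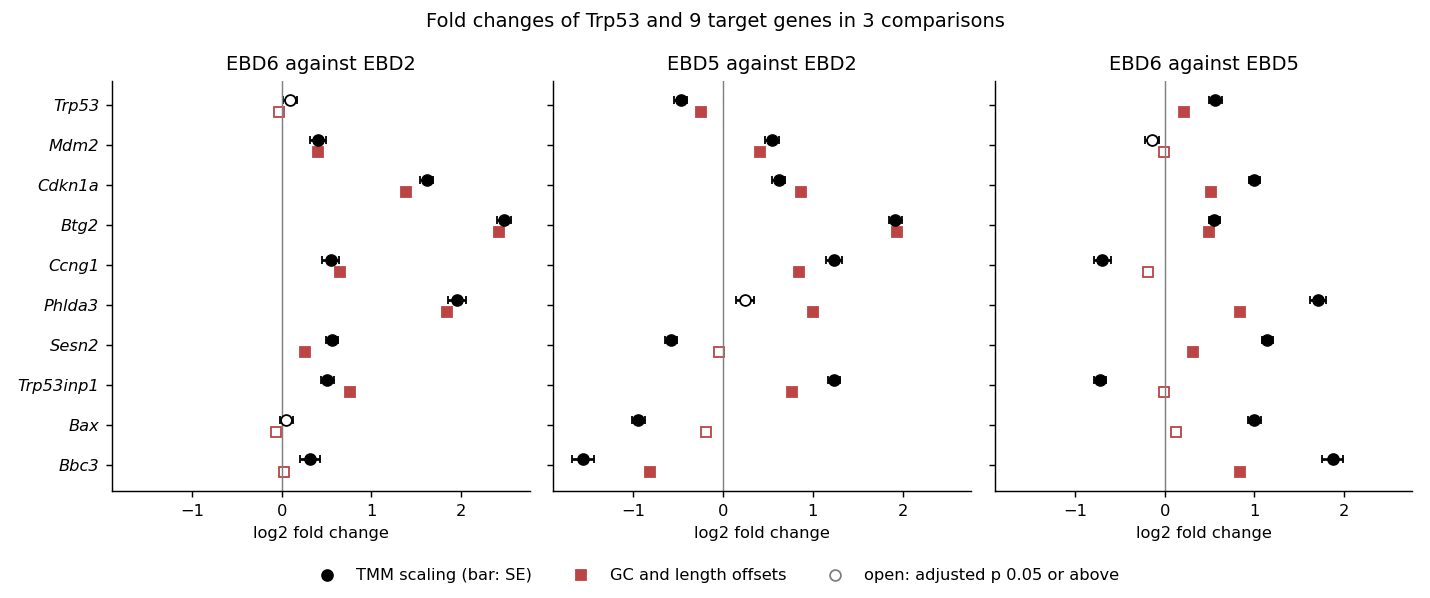
Log2 fold change of the 10 genes in the 3 comparisons; circles are the fit with TMM scaling with bars of 1 SE, squares the fit with GC and length offsets, and open symbols have an edgeR adjusted p of 0.05 or above. In EBD6 against EBD2 the squares lie near the circles for Btg2, Phlda3 and Mdm2, and in the comparisons with EBD5 those of Bax and Bbc3 move towards 0.

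Trp53 (ENSMUSG00000059552, chr11:69580359-69591873 on mm10, plus strand) stood at 177.7 and 189.8 CPM in the EBD2 samples, 125.7, 144.1 and 126.5 CPM in EBD5, and 203.1 and 189.0 CPM in EBD6. All EBD5 samples lay below the others, and the EBD2 and EBD6 samples overlapped. Trp53 fell by 0.47 ± 0.07 (SE) on the log2 scale in EBD5 against EBD2 (edgeR adjusted p = 0.00017) and rose 1.48-fold in EBD6 against EBD5 (edgeR adjusted p = 3.89e-05). Between EBD6 and EBD2 the log2 difference was 0.09 ± 0.08 (edgeR adjusted p = 0.318). With the GC and length offsets the log2 fold changes of Trp53 were -0.25 (edgeR adjusted p = 0.023) and 0.22 (edgeR adjusted p = 0.0394) in the comparisons with EBD5; with a replicate block added to the offsets, the latter was 0.15 and did not pass (edgeR adjusted p = 0.102). Of the 50-base windows of the longest Trp53 transcript, 2.95% also occur in other genes, mostly in the pseudogene Trp53-ps, which held 0 counts.

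Mdm2 (ENSMUSG00000020184, chr10:117688875-117710758, minus strand), the ligase that marks p53 for destruction, was at 161.0 and 174.2 CPM in EBD2, 240.5, 227.1 and 263.3 CPM in EBD5, and 233.6 and 211.2 CPM in EBD6. EBD5 and EBD6 lay above EBD2 and overlapped each other. Mdm2 rose 1.46-fold in EBD5 (edgeR adjusted p = 0.000105) and 1.33-fold in EBD6 (edgeR adjusted p = 0.00146) against EBD2, and the log2 difference between EBD6 and EBD5 was -0.14 ± 0.08 (edgeR adjusted p = 0.136). The last difference passed when the 9 libraries were kept separate (edgeR adjusted p = 0.0214) and, at the threshold, without library 2 of EBD5 (-0.19, edgeR adjusted p = 0.05), and with GC and length offsets it was -0.01.

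Cdkn1a (ENSMUSG00000023067, chr17:29090976-29100727, plus strand) encodes p21, the inhibitor of cyclin-dependent kinases through which p53 arrests the cycle, and it was ordered EBD2, EBD5, EBD6 with no overlap. It stood at 50.48 and 49.66 CPM in EBD2, 74.6, 78.05 and 78.57 CPM in EBD5, and 161.7 and 147.8 CPM in EBD6. The rise was 1.54-fold from EBD2 to EBD5 (edgeR adjusted p = 1.62e-05), 2.0-fold from EBD5 to EBD6 (edgeR adjusted p = 2.12e-07) and 3.07-fold from EBD2 to EBD6 (edgeR adjusted p = 1.19e-08). All 3 calls were also made with the GC and length offsets. A transcript on the opposite strand, AC167363.2, overlaps 7.68% of the Cdkn1a exon bases and held 0 counts.

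Btg2 (ENSMUSG00000020423, chr1:134075170-134079120, minus strand), an anti-proliferative cofactor of the mRNA deadenylation machinery and also an immediate early gene, had the highest fold change of the 10 genes from EBD2 to EBD6. It was at 26.7 and 27.3 CPM in EBD2, 107.1, 96.1 and 102.7 CPM in EBD5, and 147.8 and 151.1 CPM in EBD6. The 3 groups did not overlap. The rise was 3.78-fold in EBD5 (edgeR adjusted p = 5.63e-09) and 5.55-fold in EBD6 (edgeR adjusted p = 9.75e-10) against EBD2, and 1.47-fold in EBD6 against EBD5 (edgeR adjusted p = 1.18e-05). Of 14 immediate early genes tested, Btg2 among them, 12 (85.7%) rose and 1 fell in EBD6 against EBD2, where 33.8% of all genes rose; with GC and length offsets 12 rose and 2 fell. Fos went from 1.06 to 32.69 CPM and Junb from 4.96 to 52.61 CPM. In EBD5 against EBD2, 9 (64.3%) rose and 4 (28.6%) fell (Fosl1, Dusp1, Myc and Ier2), where 34.9% of all genes rose and 35.1% fell. In EBD6 against EBD5 all 14 rose, 12 with the offsets, where 36.9% of all genes rose.

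Ccng1 (ENSMUSG00000020326, chr11:40748552-40755311, minus strand), which encodes the cyclin G1 that recruits a phosphatase to Mdm2, was highest in EBD5. It was at 223.3 and 246.7 CPM in EBD2, 525.1, 584.8 and 547.9 CPM in EBD5, and 375.0 and 311.5 CPM in EBD6. The groups did not overlap. Ccng1 rose 2.36-fold in EBD5 (edgeR adjusted p = 6.67e-07) and 1.46-fold in EBD6 (edgeR adjusted p = 0.00056) against EBD2, and fell by 0.69 ± 0.09 on the log2 scale in EBD6 against EBD5 (edgeR adjusted p = 4.12e-05). With GC and length offsets this last value was -0.19 (edgeR adjusted p = 0.0579), while the rise over EBD2 was 0.84 in EBD5 and 0.65 in EBD6 on the log2 scale.

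Phlda3 (ENSMUSG00000041801, chr1:135766119-135769136, plus strand) encodes a small pleckstrin-homology protein that competes with Akt for membrane lipids, and it was high in EBD6 alone among these conditions. It was at 27.78 and 26.94 CPM in EBD2, 35.41, 33.59 and 28.14 CPM in EBD5, and 108.7 and 104.2 CPM in EBD6. It rose 3.87-fold in EBD6 against EBD2 (edgeR adjusted p = 3.24e-08) and 3.27-fold in EBD6 against EBD5 (edgeR adjusted p = 5.96e-08). Every EBD5 sample lay above both EBD2 samples, library 3 of EBD5 only slightly, and the log2 difference of 0.24 ± 0.10 did not pass (edgeR adjusted p = 0.0552). Without library 3 of EBD5 it was 0.34 (edgeR adjusted p = 0.00982), without library 2 of EBD2 it passed too (edgeR adjusted p = 0.0304), and with GC and length offsets 1.0 (edgeR adjusted p = 1.13e-05), which then takes the value of EBD6 against EBD5 from 1.71 to 0.84.

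Sesn2 (ENSMUSG00000028893, chr4:132492032-132510501, minus strand) encodes a sestrin, a leucine-sensing inhibitor of mTORC1 signalling. It was at 123.3 and 111.5 CPM in EBD2, 79.82, 81.06 and 74.98 CPM in EBD5, and 169.1 and 178.0 CPM in EBD6. EBD5 was lowest and EBD6 highest, with no overlap. Sesn2 rose 1.48-fold in EBD6 against EBD2 (edgeR adjusted p = 3.14e-05) and 2.21-fold in EBD6 against EBD5 (edgeR adjusted p = 1.16e-07), and fell by 0.59 ± 0.07 on the log2 scale in EBD5 against EBD2 (edgeR adjusted p = 1.91e-05). With GC and length offsets the fall in EBD5 was -0.05 (edgeR adjusted p = 0.527), and the rise from EBD5 to EBD6 went from 1.15 to 0.31. Atf4, which drives the integrated stress response, is also known to activate Sesn2. Of 20 genes of that response, Sesn2 among them, 12 rose and 2 fell in EBD6 against EBD2. Over all genes 33.8% rose and 32.3% fell there. In EBD5 against EBD2, 7 rose and 7 fell, where 34.9% of all genes rose and 35.1% fell. In EBD6 against EBD5, 12 rose and 3 fell, where 36.9% of all genes rose and 33.3% fell. The part of Atf4 in the Sesn2 values was not tested.

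Trp53inp1 (ENSMUSG00000028211, chr4:11156431-11174379, plus strand), a stress-induced protein of autophagy and of p53 phosphorylation complexes, had the same order of groups as Ccng1. It was at 237.8 and 244.8 CPM in EBD2, 554.2, 557.7 and 590.4 CPM in EBD5, and 359.0 and 329.4 CPM in EBD6. There was no overlap between groups. It rose 2.35-fold in EBD5 (edgeR adjusted p = 8.14e-08) and 1.42-fold in EBD6 (edgeR adjusted p = 0.000114) against EBD2. In EBD6 against EBD5 it fell by 0.72 ± 0.07 on the log2 scale (edgeR adjusted p = 3.53e-06), a value that became -0.01 (edgeR adjusted p = 0.94) with GC and length offsets.

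Bax (ENSMUSG00000003873, chr7:45461697-45466898, minus strand), which forms the pore in the outer mitochondrial membrane, was low in EBD5 and level between EBD2 and EBD6. It was at 107.5 and 107.8 CPM in EBD2, 53.75, 57.83 and 55.91 CPM in EBD5, and 119.1 and 105.9 CPM in EBD6, where the EBD6 samples span those of EBD2. Bax fell by 0.95 ± 0.07 on the log2 scale in EBD5 against EBD2 (edgeR adjusted p = 7.07e-07) and rose 2.0-fold in EBD6 against EBD5 (edgeR adjusted p = 4.71e-07); the EBD6 against EBD2 difference was 0.05 ± 0.07 (edgeR adjusted p = 0.552). Both calls with EBD5 were lost with GC and length offsets, at -0.19 (edgeR adjusted p = 0.101) and 0.13 (edgeR adjusted p = 0.27). The gene Gm45808 shares 12.2% of the Bax exon bases on the same strand, and its level was 0.0998% to 1.71% of that of Bax, so its share of the reads is uncertain but small.

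Bbc3 (ENSMUSG00000002083, chr7:16308393-16318205, plus strand) encodes Puma, which sets Bax free by binding its inhibitors. It was the lowest of the 10 per length in EBD5 and EBD6, at 33.27 and 29.94 CPM in EBD2, 10.43, 11.53 and 10.39 CPM in EBD5, and 35.94 and 42.04 CPM in EBD6. The groups did not overlap, though EBD2 and EBD6 nearly met. Bbc3 fell by 1.56 ± 0.12 on the log2 scale in EBD5 against EBD2 (edgeR adjusted p = 8.87e-07) and rose 3.66-fold in EBD6 against EBD5 (edgeR adjusted p = 1.97e-07). With GC and length offsets these values were -0.81 (edgeR adjusted p = 2.42e-05) and 0.84, and both calls were still made. The 1.24-fold rise in EBD6 against EBD2 (edgeR adjusted p = 0.0238) was lost with those offsets (0.03, edgeR adjusted p = 0.778) and without library 3 of EBD2 (0.25, edgeR adjusted p = 0.14). Its count of 55 in an EBD5 library was the lowest of any member.

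Levels were compared between genes per length of exon, in RPKM (CPM per kilobase of exon). In EBD2, Bax (68.3 ± 0.106 RPKM, SD, n = 2) and Ccng1 (66.9 ± 4.71) led and overlapped, followed by Trp53 at 45.4 and Trp53inp1 at 37.3, and Btg2 was last at 9.84. In EBD5, Ccng1 led with 157.0 RPKM, ahead of Trp53inp1 at 87.6 and Mdm2 at 47.9, with no overlap between these neighbours. Btg2 at 37.2 overlapped Bax at 35.4, and Bax overlapped Trp53 at 32.7. Trp53 did not overlap the gene after it, and Bbc3 was last at 5.08. In EBD6, Ccng1 led again at 97.7 RPKM, followed by Bax at 71.4 and Phlda3 at 68.3, which overlapped. Btg2, Trp53inp1, Sesn2 and Trp53 came next, between 54.5 and 48.5 RPKM, with each overlapping its neighbour.

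The paralogs of the 10 genes did not share one pattern. Of 15 tested, 7 (46.7%) rose and 5 (33.3%) fell in EBD6 against EBD2, where 33.8% of all genes rose and 32.3% fell. In EBD5 against EBD2, 8 (53.3%) rose and 5 (33.3%) fell, against 34.9% and 35.1% of all genes. In EBD6 against EBD5, 6 (40.0%) rose and 7 (46.7%) fell, against 36.9% and 33.3% of all genes. Trp63, the p53 relative of epithelia, had 0 counts in EBD2, 5 in EBD5 and 246 in EBD6, where its mean of 8.36 CPM was at least 48.9-fold above the 0.171 CPM that 3 counts over the EBD2 group would give. Trp73, the other relative, averaged 31.66 CPM in EBD2, 14.97 in EBD5 and 14.17 in EBD6, and fell by 1.12 ± 0.15 on the log2 scale in EBD6 against EBD2 (edgeR adjusted p = 6.98e-05). With GC and length offsets the log2 fold change of Trp73 in EBD6 against EBD5 was -0.815 (edgeR adjusted p = 0.00028). Trp73 is itself on the list of p53 targets used below.

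Mdm4, which binds p53 without destroying it, rose in EBD5 and fell in EBD6: its mean was 303.8 CPM in EBD2, 452.7 in EBD5 and 169.3 in EBD6, a fall of 0.84 ± 0.07 on the log2 scale between EBD6 and EBD2 (edgeR adjusted p = 1.83e-06) where Mdm2 rose. Cdkn1c, the imprinted relative of Cdkn1a, rose with it in EBD6, from 30.6 ± 1.19 (SD, n = 2) to 150.8 ± 16.5 CPM (n = 2), a log2 fold change of 2.28 ± 0.09 (SE). Its EBD5 level of 26.26 CPM did not differ from EBD2 by the test (edgeR adjusted p = 0.0708), and its value there changed sign with GC and length offsets, from -0.23 to 0.32. Cdkn1b, the third of these inhibitors, was highest in EBD5 (219.2 CPM) and rose in EBD6 against EBD2 from 106.0 to 143.5 CPM. Phlda1, a relative of Phlda3, rose in both EBD5 and EBD6, from 19.69 to 36.64 and 74.96 CPM. With GC and length offsets its log2 fold change in EBD6 against EBD5 was 0.229 (edgeR adjusted p = 0.0278). Sesn1, which is known as a p53 target as well, fell from 59.09 to 29.55 CPM between EBD2 and EBD6 where Sesn2 rose. Btg1 had its highest mean in EBD5, at 81.87 CPM against 28.35 in EBD2 and 50.25 in EBD6. Bak1, the second pore-forming protein, was low in EBD5 as Bax was, at 113.9, 59.52 and 102.9 CPM in the order EBD2, EBD5, EBD6; with GC and length offsets its rise from EBD5 to EBD6 did not pass (0.15, edgeR adjusted p = 0.0625).

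**Figure D4:**
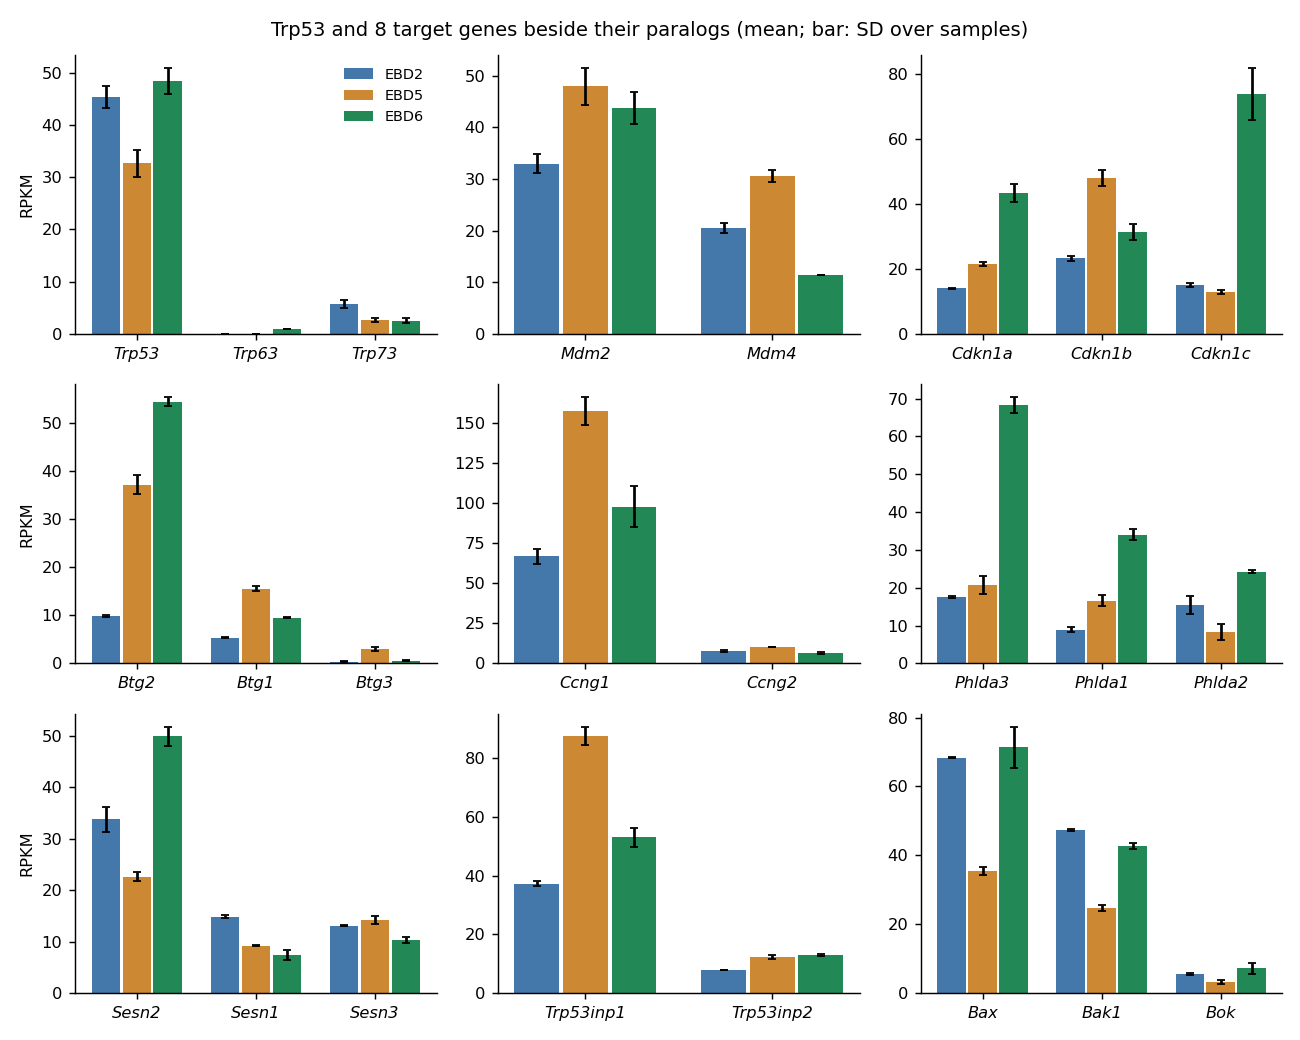
Mean level in RPKM (vertical axis, from 0) of Trp53 and 8 of its target genes beside their paralogs, in EBD2, EBD5 and EBD6; bars are SDs over 2, 3 and 2 samples. In EBD6, Cdkn1c stands with Cdkn1a and Phlda1 with Phlda3, while Mdm4, Sesn1 and Trp73 have lower bars than in EBD2.

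Of 49 other p53 target genes tested, 29 (59.2%) rose, 10 (20.4%) fell and 10 did not pass in EBD6 against EBD2. Over all genes 33.8% rose and 32.3% fell there. The median log2 fold change of these targets was 0.40 against 0.01 over all genes. With GC and length offsets 26 of them rose and 12 fell. Perp, a desmosomal p53 target, went from 4.67 to 78.16 CPM, Dram1, a lysosomal protein of p53-dependent autophagy, from 0.727 to 27.68 CPM, and the membrane protein Cd82 from 0.981 to 29.5 CPM. The DNA repair factor Ddb2 fell from 44.08 to 25.98 CPM. In EBD5 against EBD2, 25 (51.0%) rose and 14 (28.6%) fell, where 34.9% of all genes rose and 35.1% fell. With the offsets 24 rose and 12 fell. Dram1 reached 40.84 CPM, and the kinase Plk3 went from 34.99 to 9.68 CPM. In EBD6 against EBD5, 23 (46.9%) rose and 16 (32.7%) fell, where 36.9% of all genes rose and 33.3% fell. With the offsets these counts became 16 and 16. Pmaip1, which encodes the Bcl2-family protein Noxa, went from 283.5 to 148.4 CPM. Perp is also expressed in epithelia. The endoderm and trophoblast markers given above differ between the groups too, and their part was not tested.

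Of 30 cell cycle genes that p53 is known to lower through p21 and the DREAM repressor complex, 19 (63.3%) fell in EBD6 against EBD2. Of the others, 4 (13.3%) rose and 7 did not pass, where 32.3% of all genes fell and 33.8% rose. The median log2 fold change of the 30 was -0.32. With GC and length offsets 19 fell and 2 rose. Mki67, the proliferation marker, went from 799.3 to 456.5 CPM, Top2a, the replicative topoisomerase, from 1051 to 593.6 CPM, and Mybl2, an activator of mitotic genes, from 349.5 to 179.8 CPM. In EBD5 against EBD2, 13 (43.3%) fell and 5 (16.7%) rose (14 and 3 with the offsets). Over all genes 35.1% fell and 34.9% rose there. The mitotic cyclin Ccnb1 went up from 168.6 to 366.3 CPM and E2f1 down from 96.84 to 31.8 CPM. In EBD6 against EBD5, 13 (43.3%) fell and 8 (26.7%) rose, where 33.3% of all genes fell and 36.9% rose. The cell type markers given above differ between the groups as well, and their part in these values was not tested.

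The kinases and sensors that signal DNA damage to p53 mostly fell. Of 18 tested, 11 (61.1%) fell and 2 (11.1%) rose in EBD6 against EBD2, where 32.3% of all genes fell and 33.8% rose. Their median log2 fold change was -0.50, and with GC and length offsets 11 fell and 1 rose. Atm, the kinase at the head of the double-strand break response, went from 218.0 to 82.0 CPM, Prkdc from 213.7 to 96.11 CPM and Mdc1 from 560.2 to 248.1 CPM. In EBD5 against EBD2, 10 (55.6%) fell and 1 (5.56%) rose, where 35.1% of all genes fell and 34.9% rose. In EBD6 against EBD5, 10 (55.6%) fell and 4 (22.2%) rose, where 33.3% of all genes fell and 36.9% rose. These last counts became 7 and 7 with GC and length offsets. Regulators and cofactors of p53 were mixed: of 34 tested, 10 rose and 15 fell in EBD6 against EBD2, 9 rose and 16 fell in EBD5 against EBD2, and 17 rose and 13 fell in EBD6 against EBD5. With GC and length offsets the counts of regulators in EBD6 against EBD5 turned to 8 and 14. In EBD6 against EBD2 the acetyltransferase Crebbp, which acts on p53, went from 61.89 to 162.4 CPM, and the deubiquitinase Usp7 from 641.2 to 354.8 CPM.

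The Bcl2 family and the apoptosome held 23 tested genes beside Bax and Bbc3. Of these 23, 11 (47.8%) rose and 5 (21.7%) fell in EBD6 against EBD2. Over all genes 33.8% rose and 32.3% fell there, and with GC and length offsets 9 of the 23 rose and 7 fell. Anti-apoptotic Bcl2 and Bcl2l1 were among the risers, from 2.51 to 12.1 CPM and from 48.22 to 104.2 CPM, and so was the pro-apoptotic Hrk, from 10.75 to 29.06 CPM. Anti-apoptotic Mcl1 fell from 516.2 to 285.3 CPM. In EBD5 against EBD2, 11 (47.8%) rose and 6 (26.1%) fell, where 34.9% of all genes rose and 35.1% fell. In EBD6 against EBD5, 11 (47.8%) rose and 9 (39.1%) fell, where 36.9% of all genes rose and 33.3% fell. With GC and length offsets the last counts became 4 and 10.

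**Figure D5:**
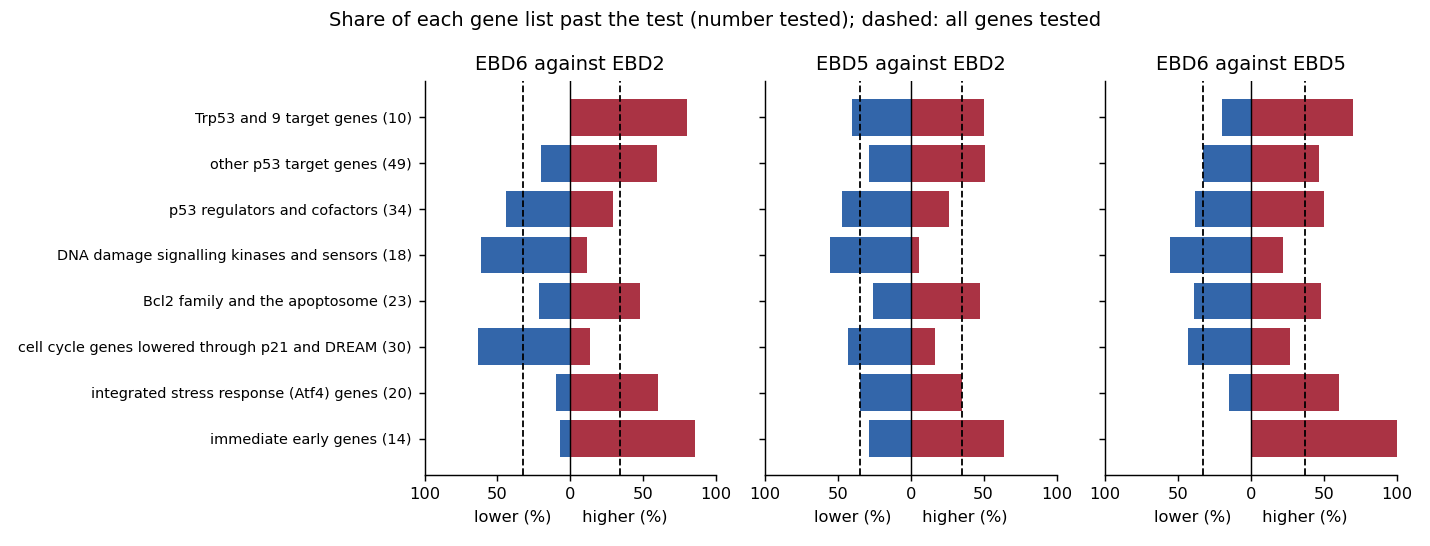
Share of each gene list, in percent, that was higher (right) or lower (left) by the edgeR test in each comparison, with the number of genes tested after the name of each list; dashed lines are the shares over all genes tested. In EBD6 against EBD2 the 10 genes and the other p53 targets lie beyond the dashed line on the higher side, and the cell cycle and DNA damage lists beyond it on the lower side.

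The genes whose profile over the 9 libraries lay nearest to that of Trp53, by Euclidean distance of centred log2 CPM among 10905 genes with a mean of at least 10 CPM, were Mta2 (0.10), Cpsf4 (0.11), Afg3l1 (0.12), Pcid2 (0.12) and Meg3 (0.14). Mta2, a subunit of a nucleosome-remodelling and deacetylase complex, averaged 175.0 CPM in EBD2, 123.0 in EBD5 and 183.0 in EBD6. None of the 9 targets was among these 5; the nearest of them was Bax, at 0.67. Nearest to Cdkn1a were Anxa5 (0.16), Zxdc (0.24), Lxn (0.26), Cptp (0.29) and Wfdc2 (0.29), with Anxa5, an annexin that binds phosphatidylserine, at 20.9, 30.8 and 63.2 CPM. Its nearest neighbour among the other 9 was Phlda3, at 0.95. Libraries of a group share their cells and depth, so these distances describe 3 conditions more than 9 independent points.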

How the data were processed

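The authors deposited expected counts per gene for 9 libraries, 3 per condition; per the submitters' processing notes the tools were cutadapt 1.18, STAR 2.7.10a, RSEM 1.3.30, edgeR 3.40.2 and DESeq2 1.38.3 with build mm10. Per the labels, RNA was poly-A selected, and libraries were run on more than one Illumina instrument model, with none named per library. Values were rounded to whole counts; 1 row that names no gene, at most 0.0157% of a library, was left out. Libraries of a group that agreed within sampling noise by a chi-square test (p above 0.05) were summed. Genes passing edgeR's filterByExpr were fitted in one model over the 3 groups with edgeR 4.0.16 (R 4.3.3), TMM scaling, quasi-likelihood tests and Benjamini-Hochberg adjustment, with 4 residual degrees of freedom. The common biological coefficient of variation was 6.72%. CPM and RPKM are from these counts and TMM-scaled library sizes; RPKM uses the union of exons. The fit was also run on simulated counts, drawn with the same spread for all genes, independent samples and no trend with GC content. That run cannot speak to the GC trend of EBD5 or to libraries whose spread may be technical only.

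The 10 genes and every gene list were chosen with earlier results of these data known. Of the further lists, up to 4 genes per comparison and direction could be named, those with the largest absolute log2 fold changes among genes past the test, and paralogs in full; of the DNA damage list, 1 of 19 names matched no ID. Replicate numbers do not pair samples: correlations of same-numbered deviations were -0.076 to 0.0485. Alternatives were DESeq2 1.42.0 (size factors and Wald test), limma-voom (limma 3.58.1), other filters, separate libraries, each replicate left out, a replicate block, offsets for GC content and length in 20 bins each, and a test against a fold of 1.5.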

Additional observations from a re-analysis of the deposited data

How the results depend on the processing

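Over 630 values of the 10 genes under all alternatives, 593 kept their side of the threshold, 26 lost the call and 11 gained it. The sign changed in 5, all of Bax or Trp53 in EBD6 against EBD2, which did not pass under any of these fits: Bax was -0.06 with GC and length offsets, -0.13 with the block added and -0.002 without library 1 of EBD6, and Trp53 was -0.03 with the offsets and -0.09 with the block added. Against a fold of 1.5, the count of all genes higher was 2972 and lower 2634 in EBD5 against EBD2, 2844 and 2473 in EBD6 against EBD5, and 2655 and 2263 in EBD6 against EBD2. In that test 3 of the 10 genes were higher (Btg2, Ccng1 and Trp53inp1) and 2 lower (Bax and Bbc3) in EBD5 against EBD2. In EBD6 against EBD5, Cdkn1a, Phlda3, Sesn2, Bax and Bbc3 were higher and 1 gene, Trp53inp1, was lower. In EBD6 against EBD2, 3 were higher (Btg2, Cdkn1a and Phlda3). With GC and length offsets, 2 of the 10 genes were lower in EBD5 against EBD2 and 0 in EBD6 against EBD5; with these offsets and a replicate block the counts were 2 and 1, and the rise of Trp53 in EBD6 against EBD5 was lost (0.15, edgeR adjusted p = 0.102). The offsets reversed Cdkn1c in EBD5 against EBD2 (0.32, and 0.34 with the block) and Trp53inp2 in EBD6 against EBD5 (-0.39, and -0.37 with the block); the cause was not tested. The replicate block without offsets, over 9 libraries, called 5821 genes higher and 5691 lower in EBD5 against EBD2; Phlda3 passed there (edgeR adjusted p = 0.0257), and Mdm2 passed in EBD6 against EBD5 (edgeR adjusted p = 0.0263). The samples share only a number, since 5 of 18 correlated best with their own. Bbc3 in EBD6 against EBD2 was also lost by DESeq2's Wald test (0.29, adjusted p = 0.193).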

Other observations

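Replication-dependent histone genes, whose transcripts mostly lack a poly-A tail, summed to 39.3 to 48.7 CPM in EBD2, 222 to 241 in EBD5 and 39.8 to 43.1 in EBD6. Processed pseudogenes took 0.986% to 0.997% of counts in EBD5 and at most 0.28% elsewhere. Both set EBD5 apart, and their part in the EBD5 values of the p53 targets was not tested.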
